A study of Mus musculus with 6 samples.

Results

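Transcripts of 10 genes of the NF-kB pathway were examined in single cells of aged mouse lung, out of 31054 rows of the count tables. The genes were chosen by symbol and not by a rule on their values, but with earlier results of these data known. Of them 4 encode DNA-binding subunits (Nfkb1, Nfkb2, Rel and Relb) and 3 encode members of the IkB family (Nfkbia, Nfkbiz and Bcl3). The other 3 encode regulators that act upstream on ubiquitin chains (Tnfaip3, Tnip1 and Birc3). Each symbol matched 1 row.

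Lungs came from 6 male C57BL/6 mice of 21 months, with 1 library per mouse and 3 mice per group. Mice of the p16-DTR label carried p16-CreERT2 and R26-LSL-DTR: a Cre recombinase that tamoxifen switches on, driven by the p16 promoter, and a diphtheria toxin receptor that Cre releases from a stop cassette. Control mice carried p16-CreERT2 without the receptor. Both groups received the same agents, with tamoxifen for 5 days, an interval of 2 weeks, diphtheria toxin for 5 days and 2 weeks of recovery, so the controls had also been exposed to tamoxifen and toxin. Only cells in which the p16 promoter drove Cre during tamoxifen could become sensitive to the toxin. Lungs were digested with liberase for 1 hour at body temperature, and 20000 CD45-negative and 9000 CD45-positive cells were mixed per library. The balance of immune and other cells thus depended on the sort and is not that of the lung. The mix did not make it equal between libraries, as shares given below show.

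Many NF-kB dimers are held in the cytoplasm by IkB proteins. Signals from tumour necrosis factor, interleukin 1 or Toll-like receptors lead to degradation of the inhibitor. The dimers then enter the nucleus and bind kappaB sites, and many of the genes they switch on belong to the pathway itself. Nfkbia (IkB-alpha) and Tnfaip3 (a ubiquitin-editing enzyme) are textbook negative feedback targets, and Nfkb2, Relb, Rel, Birc3, Bcl3 and Nfkbiz are known to be induced as well. In the lung the pathway is known for endothelial adhesion molecules, fibroblast and epithelial chemokines, and lymphocyte activation.

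Letters upstream of transcription starts are shown because kappaB sites in promoters are a known route of feedback by NF-kB. RefSeq promoter windows of GRCm38.p6 (300 bases each, from 250 before to 50 after a transcription start) were found for 7 of the 10 genes, in 10 windows. The classical kappaB consensus, a motif of 10 bases searched on both strands with overlapping matches merged, was present for 6 of the 7 and in 8 of the 10 windows. Among all 27025 genes with a window it was present in 5.14%. The stretches below lie upstream of a start in RefSeq. Those of Nfkb2 and Tnfaip3 are nevertheless inside the bounds of these genes in the GENCODE annotation, which has starts further upstream. All are read 5′ to 3′ on the gene's strand, with the matches in capitals.
Nfkbia, chr12:55492648-55492701, minus strand: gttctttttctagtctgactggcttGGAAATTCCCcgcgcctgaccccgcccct
Rel, chr11:23771026-23771086, minus strand: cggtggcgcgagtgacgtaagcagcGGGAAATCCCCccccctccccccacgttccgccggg
Tnip1, chr11:54962962-54963023, minus strand: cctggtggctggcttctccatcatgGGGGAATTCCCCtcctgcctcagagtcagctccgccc
Nfkb2, chr19:46304689-46304717, plus strand: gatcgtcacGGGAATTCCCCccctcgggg
Tnfaip3, chr10:19015411-19015432, minus strand: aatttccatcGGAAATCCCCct
The match began 29 bases before the start in Nfkbia, 92 in Rel, 58 in Tnip1, 39 in Nfkb2 and 12 in Tnfaip3. Tnfaip3 had a further match 125 bases before that start, and the 3 windows of Nfkb2, which overlap in part, held matches at 3 further places. The match of Bcl3 began 3 bases after its start and is not printed. Birc3, which encodes a ubiquitin ligase of TNF receptor complexes, had no match in its window. A match is a description of the letters and not evidence of binding.

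The 6 libraries held 13482 to 17332 barcodes and 254200305 to 344421685 UMIs (unique molecular identifiers, 1 per captured transcript). Filters left 13025 to 16884 cells per library, of which 79.6% to 83.7% met a marker gate for 1 of 34 cell types. Between 59 and 94 barcodes were shared by a pair of libraries. Levels are given as CPM, the UMIs of a gene per 1000000 UMIs of the same cell type in the same library. Cdkn2a, which encodes p16, was higher in p16-DTR-labelled libraries (7.10, 8.57 and 7.31 CPM) than in controls (1.15, 2.60 and 2.84), with a log2 fold change of 1.86 (SE 0.32, edgeR adjusted p 0.126). This sum over all retained cells did not pass the test, and such sums can move with the mix of cells. A loss of p16-expressing cells was not tested, and groups are named below by their labels. A tdTomato entry of the tables had 89, 74 and 94 UMIs in p16-DTR-labelled libraries and 0 in each control library. It did not pass the same test (log2 fold change 9.48, SE 0.49, edgeR adjusted p 0.0821). A gene that does not pass over all retained cells is thus not shown to be alike between groups.

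The order of levels over cell types was described first, for the 27 gates with at least 20 cells in every library, as mean ± SD over the 6 libraries. Among the subunits, Nfkb1 (chromosome 3, 135584655 to 135691547, minus strand) was highest in gamma-delta T cells at 1279 ± 272 CPM. It was next highest in type 2 conventional dendritic cells at 1169 ± 86.2, regulatory CD4 T cells at 1107 ± 261 and CD4 T cells at 880 ± 293. The ranges of these neighbours overlapped. Alveolar type 1 cells were lowest at 57.1 ± 11.6. Nfkb2 (chromosome 19, 46304320 to 46312385, plus strand) was highest in B cells at 69.4 ± 7.58 and regulatory CD4 T cells at 65.6 ± 17.1, which could not be separated, and lowest in ciliated cells at 9.70 ± 1.55.

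Rel (chromosome 11, 23736847 to 23770970, minus strand), whose protein is known as the lymphoid subunit c-Rel, was highest in B cells at 1077 ± 86.9. Type 2 conventional dendritic cells at 1069 ± 59.4 and nonclassical monocytes at 991 ± 78.9 overlapped with them, and nonclassical monocytes lay above the next cell type, interstitial macrophages at 652 ± 77.4, with no overlap. Ciliated cells were lowest at 13.7 ± 4.65, and venous endothelial cells had 102 ± 35.2. Relb (chromosome 7, 19606217 to 19629438, minus strand), the partner of the Nfkb2 product in the noncanonical pathway, was highest in regulatory CD4 T cells at 216 ± 32.6, gamma-delta T cells at 213 ± 41.9 and natural killer cells at 199 ± 36.6, all overlapping. Ciliated cells were again lowest at 13.2 ± 4.80. The gate for mature dendritic cells held only 6 to 15 cells per library and lay outside this order. Its levels of Rel, 2447 ± 452, and of Relb, 1117 ± 203, were above those of all 27 ordered cell types, as was Nfkb2 at 216 ± 43.6.

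Of the IkB family, Nfkbia (chromosome 12, 55489410 to 55492647, minus strand) was highest in type 2 conventional dendritic cells at 1981 ± 206 and neutrophils at 1771 ± 137. Venous cells were the highest of the 5 endothelial types at 1048 ± 120, and ciliated cells were lowest overall at 104 ± 32.8. Nfkbiz (chromosome 16, 55811375 to 55838899, minus strand), a nuclear IkB protein that acts as a coactivator, was highest in neutrophils at 1250 ± 82.0. Interstitial macrophages had 1173 ± 126, alveolar fibroblasts 1015 ± 150 and peribronchial fibroblasts 931 ± 113. Peribronchial fibroblasts lay above the next cell type with no overlap, and alveolar type 1 cells were lowest at 19.01 ± 20.97. Bcl3 (chromosome 7, 19808462 to 19822770, minus strand), also a nuclear IkB protein, reached 118 ± 24.0 in neutrophils and 2.65 ± 1.66 in alveolar type 1 cells. The alveolar type 1 value rested on 17 UMIs in all. These cells were shallow, at a median of 1791 UMIs per cell beside 9652 in neutrophils, which also bears on their low values of other genes.

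Of the ubiquitin regulators, Tnfaip3 (chromosome 10, 19000910 to 19015657, minus strand) was highest in T and natural killer cells. Gamma-delta T cells had 1463 ± 246, CD4 T cells 1313 ± 112, natural killer cells 1264 ± 67.9, regulatory CD4 T cells 1184 ± 141 and CD8 T cells 953 ± 72.8. CD8 T cells lay above the next cell type with no overlap, and ciliated cells had 5.71 ± 4.77. Tnip1 (chromosome 11, 54910785 to 54962917, minus strand), which encodes a binding partner of the Tnfaip3 product, was highest in regulatory CD4 T cells at 180 ± 34.3 and lowest in alveolar type 2 cells at 15.6 ± 2.16. Birc3 (chromosome 9, 7848699 to 7873186, minus strand) was highest in B cells at 710 ± 47.2 and neutrophils at 654 ± 56.2 and lowest in ciliated cells at 19.4 ± 5.07.

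**Figure D1:**
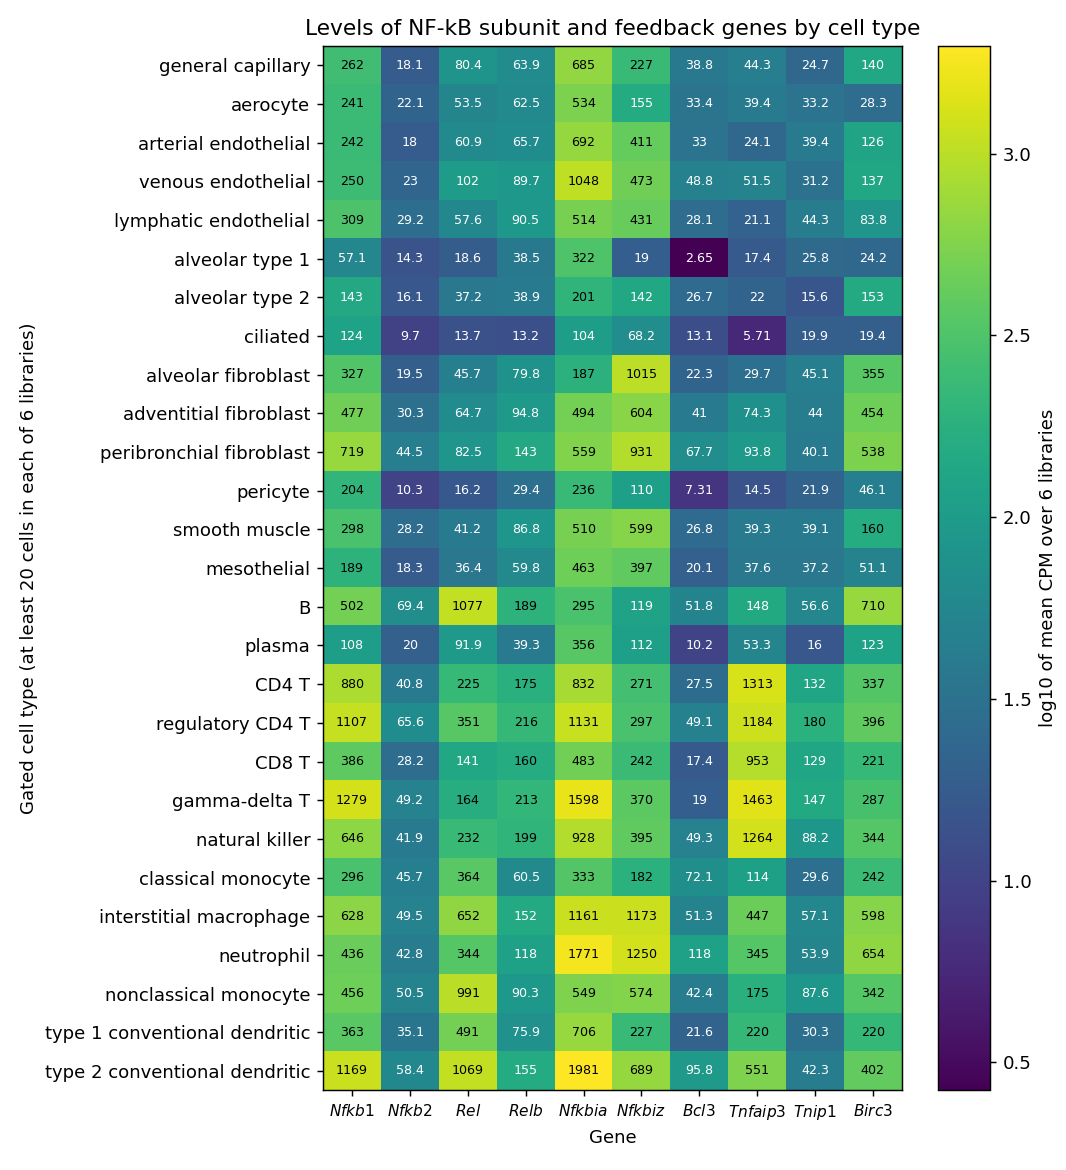
Mean CPM over 6 libraries for each gene (columns) in 27 gated cell types (rows), printed in each cell and coloured on a log10 scale. Tnfaip3 is highest in the 5 T and natural killer rows, Rel in B cells and type 2 conventional dendritic cells, and ciliated or alveolar type 1 cells hold the lowest value of 9 of the 10 genes.

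Patterns over cell types were compared by Pearson correlation of mean log2(CPM + 1) over the 27 cell types, as a description, since these values share libraries and depth. The closest gene to Nfkb2 was Nfkbie, which encodes another IkB protein (r = 0.915), and the closest to Nfkb1 was Relb (0.862). Rel was closest to Stap1 (0.913), Tnfaip3 to Zc3hav1 (0.914), Tnip1 to Stat5b (0.878), Birc3 to 1700029H14Rik (0.883), Nfkbiz to Ccnl1 (0.838), Bcl3 to Kdm6b (0.764) and Nfkbia to Ppp1r18 (0.740). Relb was closest to Nfkb2 (0.863). Of the pairs within the 10 genes, Nfkb2 with Rel had the highest correlation (0.894) and Bcl3 with Tnip1 the lowest (0.295).

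The first comparison asked whether the transcripts differed between groups over all retained cells. None of the 10 passed the edgeR quasi-likelihood test at an adjusted p of 0.05, where 0 of 21630 genes did (0% called) and 5043 had an unadjusted p under that value. Nfkbia and Nfkbiz had an unadjusted p under 0.05 (0.0137 and 0.0354, edgeR). Nfkbia had 618, 578 and 610 CPM in p16-DTR-labelled libraries and 470, 551 and 537 in controls. Its 2 groups did not overlap (log2 fold change 0.26, SE 0.08, edgeR adjusted p 0.150), and DESeq2 called it (adjusted p 0.0217), in a test that called 9.57% of genes. Nfkbiz went the other way without overlap, with 490, 476 and 413 against 700, 529 and 579 (log2 fold change −0.34, SE 0.13, edgeR adjusted p 0.193). Birc3 had 268, 272 and 280 against 350, 291 and 324 (−0.18, SE 0.08, adjusted p 0.228) and Nfkb2 had 27.9, 28.3 and 28.7 against 31.1, 28.9 and 30.8 (−0.05, SE 0.05, adjusted p 0.555), again without overlap. Over all genes tested, 22.5% were lower and 8.58% higher without overlap. A list of 14 genes that respond to tissue digestion summed to 8755 to 9366 CPM in p16-DTR-labelled libraries and 9651 to 12050 in controls, and its part was not tested.

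In the other 6 genes the groups overlapped. Tnfaip3 had a mean of 199 ± 33.5 CPM in p16-DTR-labelled libraries and 157 ± 37.1 in control ones (SD, 3 libraries a group; log2 fold change 0.40, SE 0.19, edgeR adjusted p 0.248). Relb had 84.0 ± 4.47 against 99.2 ± 11.2 (−0.19, SE 0.09, adjusted p 0.252). Nfkb1 had 361 ± 25.8 against 402 ± 29.3, Rel 203 ± 19.5 against 208 ± 16.9, Bcl3 39.0 ± 0.927 against 38.0 ± 3.83, and Tnip1 46.0 ± 1.80 against 49.2 ± 4.23. Their log2 fold changes were −0.11, 0.01, 0.09 and −0.05 with edgeR adjusted p of 0.421, 0.927, 0.540 and 0.697.

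These sums move with the mix of cells, which differed. Myeloid cells were 15.9% to 18.0% of gated cells in p16-DTR-labelled libraries and 11.5% to 13.1% in controls. Lymphoid cells were 11.7% to 19.7% against 11.3% to 17.4%, and mesenchymal cells 20.7% to 30.1% against 28.7% to 46.1%, both with overlap. Each of the 27 cell types was then given the same weight in every library, which was its mean share of UMIs over the 6 libraries. With these weights 7 genes were lower in p16-DTR-labelled libraries with no overlap, beside 19.6% of genes lower and 9.23% higher in this way. These were Nfkbiz, at 462 ± 25.4 against 576 ± 21.2 CPM (log2 ratio −0.32), Relb (−0.30), Rel (−0.23), Birc3 (−0.21), Nfkb1 (−0.20), Nfkb2 (−0.17) and Tnip1 (−0.14). Each had an exact two-sided permutation p of 0.1, the smallest that 3 against 3 libraries allow. Nfkbia, Tnfaip3 and Bcl3 overlapped, at log2 ratios of 0.01, −0.04 and −0.06 (exact permutation p of 0.8, 0.8 and 0.9). The directions of Tnfaip3 and Bcl3 over all cells turned with the weighting, as ratios of CPM. Rel was lower as a ratio of CPM with either weighting (−0.03 and −0.23), and its edgeR value of 0.01 above differs from these in sign through the TMM scaling.

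**Figure D2:**
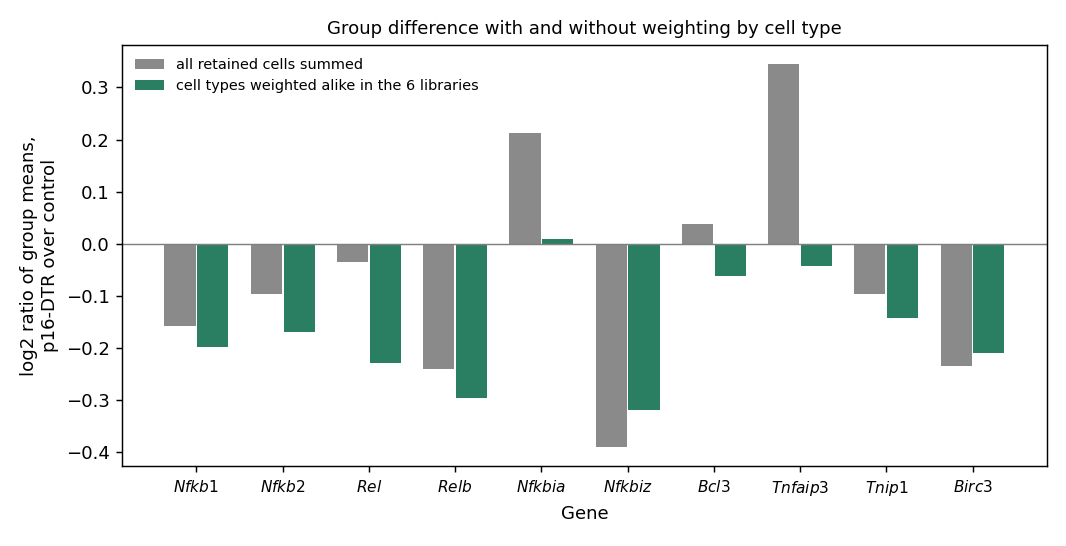
Bars give the log2 ratio of the group means (p16-DTR over control, n = 3 each, no error shown) for each gene. Grey bars are from all retained cells summed. Green bars give each of 27 cell types the same weight in the 6 libraries, which is its mean share of UMIs. Nfkbia at 0.21 and Tnfaip3 at 0.35 in the summed cells drop to 0.01 and −0.04 when weighted, and Rel goes from −0.03 to −0.23.

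The second comparison asked the same within each of the 20 cell types that had at least 50 cells in every library. Bcl3 did not pass the filter on low counts in alveolar type 1 cells, and the other 199 combinations of gene and cell type were tested. Of them 10 were called, all lower in p16-DTR-labelled libraries. Over all genes, 0.311% of combinations were called lower (742 of 238425) and 0.251% higher. The calls fell in venous, arterial and general capillary endothelial cells, CD4 T cells and natural killer cells, and in 6 of the genes. An unadjusted p under 0.05 was reached by 71 combinations that were lower and 5 that were higher, where 6.9% and 6.55% of all combinations did so. The log2 fold change was below 0 in 152 of 199 (76.4%), with a median of −0.19, beside 50% and 0.00 over all genes tested. Cell types of 1 library share a mouse, so these combinations are not independent.

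Of the subunits, Rel was lower in 19 of 20 cell types (median log2 fold change −0.32) and its groups did not overlap in 12 of them. Relb was lower in 17 cell types (median −0.29) with no overlap in 11, Nfkb1 in 18 (median −0.16) with no overlap in 10, and Nfkb2 in 17 (median −0.20) with no overlap in 8. Of the IkB family, Nfkbiz was lower in 15 (median −0.33) with no overlap in 9, Nfkbia in 10 of 20 (median −0.04) with no overlap in 3, and Bcl3 in 11 of 19 (median −0.08) with no overlap in 3. Of the ubiquitin regulators, Birc3 was lower in 17 (median −0.17) with no overlap in 7, Tnip1 in 15 (median −0.05) with no overlap in 8, and Tnfaip3 in 13 (median −0.03) with no overlap in 2. In all, 73 combinations lay lower and 3 higher without overlap, where 11.5% and 7.7% of all combinations did.

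**Figure D3:**
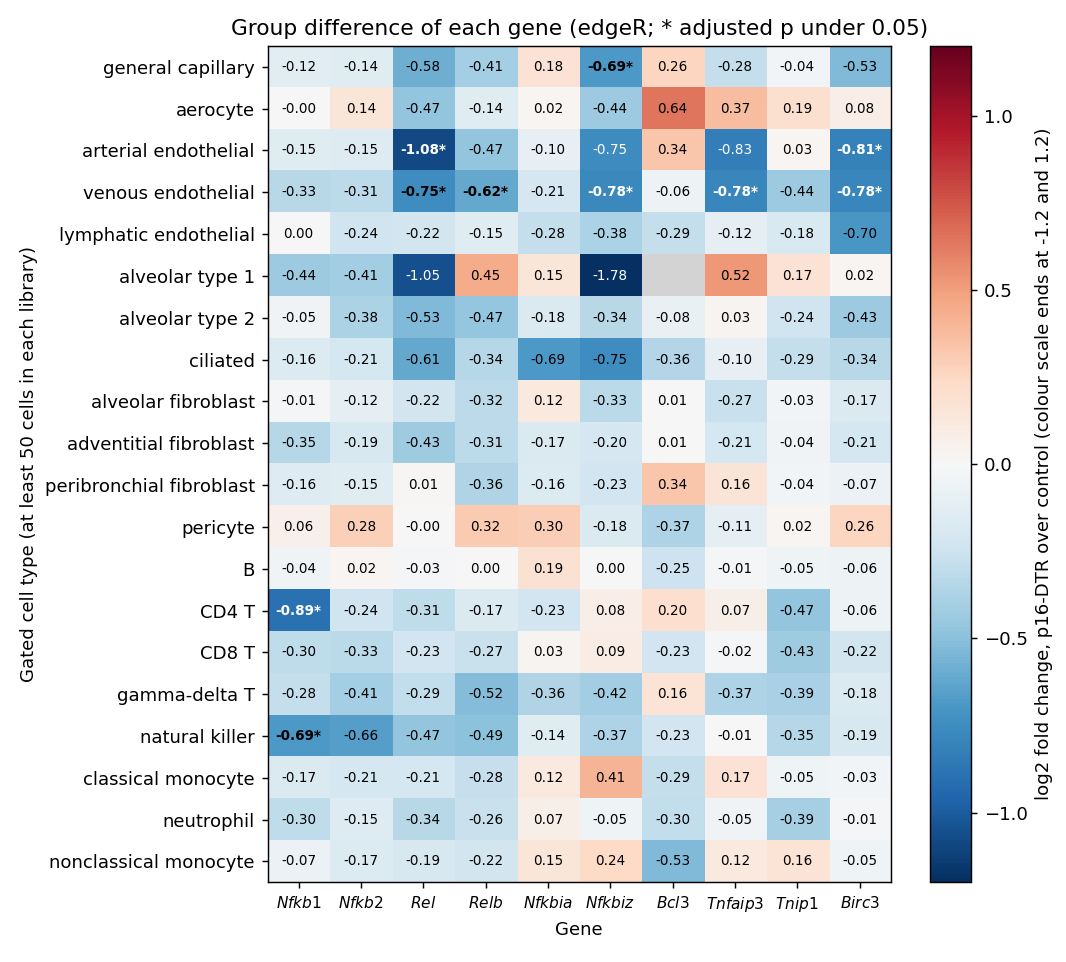
log2 fold changes (p16-DTR over control, edgeR, 3 libraries per group) of the 10 genes (columns) in 20 gated cell types (rows), with blue for lower, red for higher, grey for not tested and an asterisk for an adjusted p under 0.05. All 10 asterisks are on lower values, and 5 of them are in the venous endothelial row.

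Venous endothelial cells, which line the veins, held 5 of the 10 calls. They numbered 334 to 379 per p16-DTR-labelled library and 367 to 483 per control library. All 10 genes had log2 fold changes below 0 there (median −0.53), 9 without overlap of the groups beside 13.2% of all genes tested, and 5 were called beside 1.54% of genes called lower. Tnfaip3 had 40.4, 33.2 and 38.8 CPM in p16-DTR-labelled libraries and 58.1, 68.4 and 69.8 in controls (log2 fold change −0.78, SE 0.11, edgeR adjusted p 0.0166). Every control library lay above every library labelled p16-DTR. Birc3 had 104, 95.5 and 99.6 against 226, 155 and 141 (−0.78, SE 0.16, adjusted p 0.0435), with control replicate 1 the highest. Nfkbiz had 283, 400 and 353 against 708, 501 and 595 (−0.78, SE 0.15, adjusted p 0.0422).

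The 2 subunits called in venous cells were Rel and Relb. Rel had 76.2, 84.5 and 66.5 CPM against 160, 102 and 126 in controls (log2 fold change −0.75, SE 0.16, edgeR adjusted p 0.0489). Relb had 69.5, 75.7 and 65.0 against 132, 90.7 and 105 (−0.62, SE 0.13, adjusted p 0.0493). In both genes control replicate 1 was highest and the groups did not overlap. Nfkb1 had 219 ± 15.8 against 281 ± 52.0, Nfkb2 20.4 ± 1.53 against 25.7 ± 3.45, Tnip1 26.2 ± 4.18 against 36.1 ± 4.15, and Nfkbia 965 ± 120 against 1130 ± 33.3 (SD, n = 3 each). These 4 did not pass the test (edgeR adjusted p 0.212, 0.232, 0.132 and 0.310) although their groups did not overlap. Bcl3 overlapped, at 47.3 ± 7.18 against 50.2 ± 10.3.

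**Figure D4:**
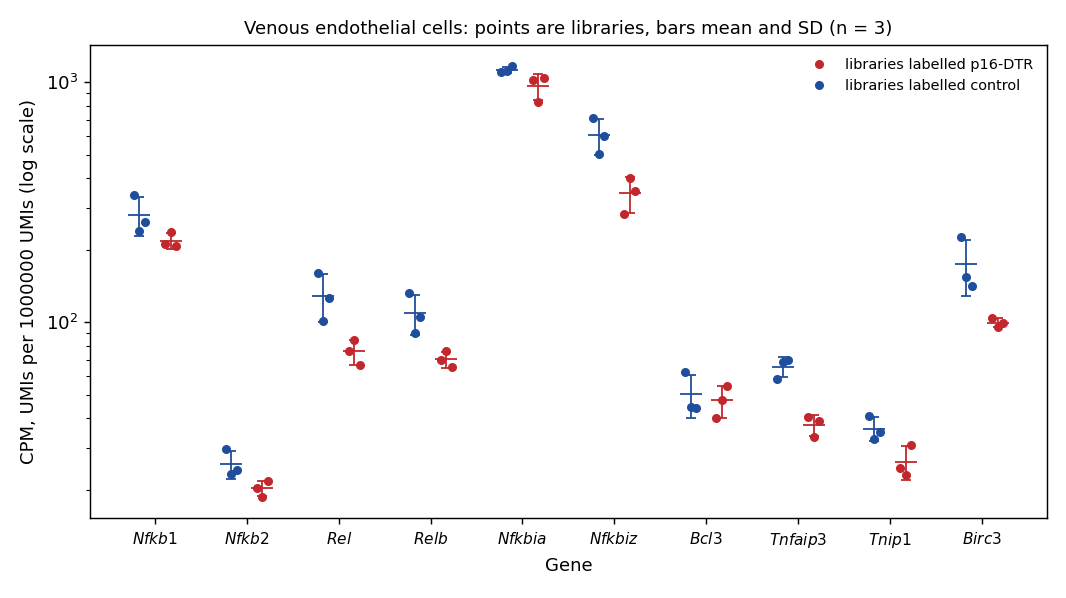
CPM of the 10 genes in venous endothelial cells on a log axis, with 1 point per library, control in blue and p16-DTR in red, and bars at the mean with SD (n = 3). Red points lie below blue points in every gene except Bcl3, where they mix.

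The venous calls stood close to the threshold. Without p16-DTR replicate 3 none of the 5 held, without p16-DTR replicate 1 or p16-DTR replicate 2 only 1 did, without control replicate 1 or control replicate 3 only 2, and without control replicate 2 there were 4. Tnfaip3 held in 5 of the 6 such fits (adjusted p 0.0680 without p16-DTR replicate 3), Birc3 in 2, and Relb, Rel and Nfkbiz in 1 each, with log2 fold changes that stayed between −0.92 and −0.47 for the 5 genes. Birc3 was also not called under a stricter gate (0.0529), nor Rel when cells that met gates of 2 compartments were kept (0.0573). Genes that respond to tissue digestion also differed: the summed level of a list of 14 such genes, none of them at 0, was 8599 to 10750 CPM in p16-DTR-labelled libraries and 12720 to 14470 in controls. In that list, 12 of 14 genes had log2 fold changes below 0 in venous cells and 5 were called lower. Among these were Zfp36, Egr1 and Ier2 (log2 fold changes −0.62, −1.08 and −0.59, edgeR adjusted p 0.00869, 0.0192 and 0.0245). The heat shock genes Hspa1a and Hspa1b, named after their values were seen, went the other way without passing (0.71 and 1.02, edgeR adjusted p 0.359 and 0.0789). The part of this list in the differences of the 10 genes was not tested. Venous markers (6 genes, none at 0) summed to 7644 to 8195 against 7032 to 7404, while general capillary, arterial and neutrophil markers overlapped between groups. Markers of alveolar fibroblasts (6 genes, none at 0) were lower, at 26.8 to 74.8 against 79.9 to 147, and so were those of adventitial fibroblasts, at 18.6 to 32.9 against 44.8 to 71.2. Nonclassical monocyte markers were higher, at 713 to 773 against 561 to 607 (5 genes, none at 0). Of 30 such lists 8 did not overlap, the others being type 1 conventional dendritic (426 to 437 against 383 to 399.8), basophil (240 to 299 against 187 to 202), type 2 innate lymphoid (177 to 241 against 250 to 353), and ciliated and interstitial macrophage lists under 5 CPM. Interstitial macrophage and type 2 innate lymphoid lists each had 1 of 6 genes at 0, and the part of all these was not tested. Each marker value here and in the gates below is a sum over a list, which a single gene can carry. Such a sum does not show that cells of the named type were in the gate.

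Other genes of the pathway were read from lists by role in venous cells. Over all genes, 1.54% were called lower there and 0.96% higher. Of 4 other NF-kB and IkB genes, 1 was called: Nfkbid, which encodes a further nuclear IkB protein, at 3.75 ± 0.808 against 11.7 ± 3.73 CPM (SD, n = 3 each; log2 fold change −1.60, SE 0.27, edgeR adjusted p 0.0284). None of the 9 receptor genes tested was called. Of 23 adaptors and kinases 1 was called lower, Ripk1, a kinase of the TNF receptor complex (−0.64, adjusted p 0.0310), and of 11 ubiquitin and RNA-decay regulators 1, Zc3h12a (−0.65, adjusted p 0.0346). Of 15 target genes outside the feedback loop 2 were called lower, Ptgs2 (−1.32) and the adhesion molecule Vcam1 (−0.98), and 1 higher, the survival gene Bcl2l1 at 345 ± 44.4 against 198 ± 39.1 (0.82; adjusted p 0.0386, 0.0428 and 0.0360). Nfkbid, Ripk1, Zc3h12a, Ptgs2, Vcam1 and Bcl2l1 are named because few genes of their lists were called, after their values were seen.

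Arterial endothelial cells, 93 to 145 per library, had 2 calls where 0.106% of genes were called lower. Of the 726 cells in this gate 178 lay near its thresholds, and the next best gate was most often venous endothelial. Rel had 51.1, 34.5 and 31.2 CPM against 89.8, 75.02 and 83.9 in controls (log2 fold change −1.08, SE 0.18, edgeR adjusted p 0.0380). Birc3 had 105, 93.4 and 73.0 against 169, 159 and 154 (−0.81, SE 0.14, adjusted p 0.0432). The groups did not overlap in either gene. Both calls were lost when any 1 of the 6 libraries was left out, with adjusted p from 0.0731 to 0.158, and under a stricter gate (0.185 for Rel and 0.284 for Birc3). A stricter cell filter also ended the call of Birc3 (0.0593). Nfkbiz, Relb and Tnfaip3 had log2 fold changes of −0.75, −0.47 and −0.83 and did not pass (adjusted p 0.133, 0.178 and 0.296); without control replicate 2, Nfkbiz passed (0.0221). The digestion list summed to 6611 to 8761 against 10090 to 13210, and 2 of its genes were called, Egr1 (−1.24) and Btg2 (−0.73), both at an adjusted p of 0.0311. Of 30 marker lists of other cell types, 4 did not overlap between groups in the arterial gate. These were general capillary markers (6 genes, none at 0; 1577 to 1719 against 1374 to 1542), the basophil list (6 genes, 1 at 0; 178 to 240 against 160 to 165), and ciliated and natural killer lists, which stayed under 5 CPM. The part of these and of the digestion list was not tested.

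General capillary cells, which were 2575 to 3802 per library, had 1 call beside 0.816% of genes called lower. Nfkbiz had 158, 192 and 162 CPM against 294, 232 and 326 in controls (log2 fold change −0.69, SE 0.13, edgeR adjusted p 0.0468), without overlap. It was not called without p16-DTR replicate 1, p16-DTR replicate 3, control replicate 1 or control replicate 3 (adjusted p 0.115, 0.137, 0.132 and 0.0916), or when cells that met gates of 2 compartments were kept (0.108). Birc3, Rel and Relb stood just past the threshold at log2 fold changes of −0.53, −0.58 and −0.41 (adjusted p 0.0548, 0.0597 and 0.0598). With library size as scaling, 90 genes of this cell type were called higher and 191 lower, where the main scaling gave 124 and 130. The digestion list summed to 6175 to 7320 against 8009 to 10920 and lymphatic markers (6 genes, none at 0) to 1026 to 1157 against 633 to 847. Of 30 marker lists of other cell types, 11 did not overlap between groups in this gate, none with a gene at 0. Besides lymphatic markers, those of nonclassical monocytes (1191 to 1354 against 1042 to 1126), basophils (365 to 437 against 282 to 331), peribronchial fibroblasts (38.5 to 43.4 against 35.7 to 37.2), T cells (7.84 to 8.73 against 4.34 to 6.42) and interstitial macrophages (1.93 to 3.06 against 0.897 to 1.08) were higher. Those of type 1 conventional dendritic cells (523 to 590 against 599.6 to 755), type 2 innate lymphoid cells (86.7 to 138 against 162 to 249.1), adventitial fibroblasts (4.28 to 5.90 against 5.98 to 10.7), mesothelial cells (1.75 to 2.78 against 3.25 to 3.35) and ciliated cells (2.97 to 3.06 against 3.25 to 4.49) were lower. The part of these and of the digestion list was not tested. Egr1 (−1.35), Ripk1 (−0.70) and Btg2 (−0.59) were the list genes called there (adjusted p 0.0392, 0.0442 and 0.0497).

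Aerocytes, the other capillary type, and lymphatic cells had no call among the 10 genes, where 0.26% and 0.0267% of genes were called lower. In aerocytes Tnfaip3 had 50.7, 31.8 and 50.2 CPM against 34.1, 32.8 and 36.7 in controls (log2 fold change 0.37, SE 0.16, edgeR adjusted p 0.286), with overlap. Bcl3 had 40.01, 36.8 and 43.6 against 34.5, 21.1 and 24.1 (0.64, SE 0.16, adjusted p 0.113), the largest positive log2 fold change of the 199. In lymphatic cells Birc3 had a log2 fold change of −0.70 and did not pass. The digestion list summed to 12060 to 12980 against 15260 to 17330 in lymphatic cells and overlapped in aerocytes, and its part was not tested.

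CD4 T cells held the call with the smallest adjusted p of the 10. Nfkb1, whose product is both a subunit and, before processing, an inhibitor, had 710, 600 and 548 CPM in p16-DTR-labelled libraries and 1215, 1084 and 1123 in controls. The log2 fold change was −0.89 (SE 0.11, edgeR adjusted p 0.00658), with 2.15% of genes called lower in this cell type, and Nfkb1 stayed called when any 1 of the 6 libraries was left out (adjusted p 0.00287 to 0.0330). No library of one group reached the range of the other. Tnip1 came next at 111, 112 and 112 against 141, 140 and 178 (−0.47, SE 0.11, adjusted p 0.0515), which did not pass. The other 8 genes had adjusted p of 0.260 or more. There were 186 to 369 CD4 T cells per library.

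The makeup of the CD4 T gate differed between groups, on a measure chosen after the data were seen. Cells with a UMI of Il17a, Il17f, Il23r or Il17re, genes of the interleukin 17 programme, were 18.3%, 2.24% and 5.69% of CD4 T cells in p16-DTR-labelled libraries and 40.5%, 48.3% and 37.0% in controls. After thinning each cell to 5000 UMIs the shares were 15.1%, 1.30% and 4.27% against 36.6%, 45.5% and 31.8%, with 0 to 18 shallower cells left out per library. In B cells, which should lack these genes, the share was 0.499% to 1.51% before and 0.132% to 0.525% after thinning, at median depths of 12305 to 14597 UMIs beside 13271 to 16037 in CD4 T cells. Nfkb1 in the cells with such a UMI was 1076, 578 and 789 CPM against 1844, 1501 and 1772. In the cells without one it was 602, 600.4 and 529 against 787, 655 and 683. The groups did not overlap in either set.

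With those cells left out, an alternative also chosen after the data were seen, the log2 fold change of Nfkb1 was −0.32 (SE 0.10, edgeR adjusted p 0.270) in a fit that called 0.216% of genes, and none of the 10 genes was called. The cells with such a UMI numbered 7 to 34 in p16-DTR-labelled libraries, so their values rest on few cells. Markers of natural killer cells (6 genes, none at 0) summed to 54.3 to 107 CPM against 16.9 to 27.2 in the CD4 T gate, and the digestion list to 5232 to 5974 against 6292 to 6534. Of 30 other lists only 2 more did not overlap there, alveolar type 1 (117 to 162 against 72.3 to 96.6) and secretory (48.3 to 69.2 against 38.5 to 46.0). The gate's own T cell markers (6 genes, none at 0) did not overlap either, at 3909 to 4035 against 3290 to 3783. The part of these was not tested. From the pathway lists, Ccl5, a chemokine of cytotoxic and memory cells, was higher at 3027 ± 891 against 446 ± 129 CPM (2.75, SE 0.29, adjusted p 0.00633). Il1r1, the interleukin 1 receptor, was lower at 27.1 ± 18.1 against 191 ± 39.6 (−2.93, SE 0.39, adjusted p 0.00916), and so was Junb of the digestion list (−0.40, adjusted p 0.0176). Also called lower there were Map3k14, the kinase of the noncanonical pathway (−0.64, adjusted p 0.0195), Birc2 (−0.38, adjusted p 0.0374) and Atf3 (−1.17, adjusted p 0.0462), named after their values were seen.

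**Figure D5:**
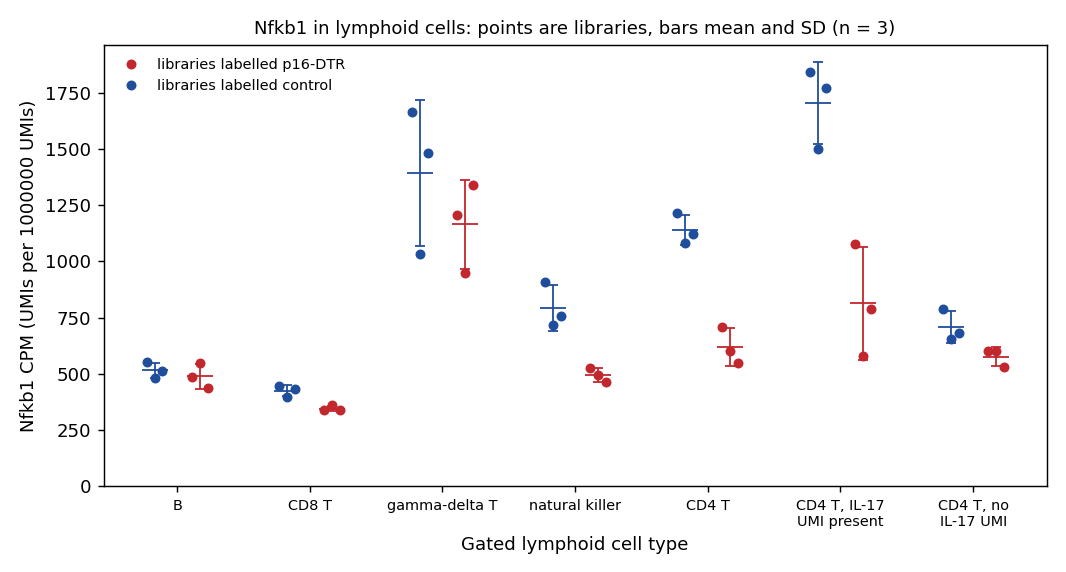
Nfkb1 CPM in lymphoid cell types and in CD4 T cells with and without a UMI of the interleukin 17 programme, with 1 point per library, control in blue, p16-DTR in red and bars at the mean with SD (n = 3). The gap between groups in CD4 T cells (548 to 710 against 1084 to 1215) is narrower in cells without such a UMI (529 to 602 against 655 to 787).

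Natural killer cells, 72 to 264 per library, had 1 call where 0.101% of genes were called lower. Nfkb1 had 528, 497 and 464 CPM against 910, 716 and 758 in controls (log2 fold change −0.69, SE 0.10, edgeR adjusted p 0.0346), without overlap. The call held only without control replicate 2; it was lost without p16-DTR replicate 1, 2 or 3 (adjusted p 0.103, 0.0709 and 0.131) and without control replicate 1 or 3 (0.0969 and 0.0909). Keeping cells that met gates of 2 compartments also ended it (0.0913). Relb had 168, 173 and 156 against 223, 231 and 240 (−0.49, SE 0.08, adjusted p 0.0529), just past the threshold. Nfkb2 had 30.5, 33.7 and 32.1 against 52.9, 58.6 and 43.5 (−0.66, SE 0.15, adjusted p 0.147). All 10 genes had log2 fold changes below 0 in these cells and 6 did not overlap, beside 7.41% of genes that lay lower without overlap. Here the digestion list overlapped between groups (4949 to 5758 against 4827 to 5653), and T cell markers (6 genes, none at 0) were 244 to 322 against 196 to 242. Classical monocyte (722 to 814 against 619 to 699) and alveolar type 1 lists (187 to 198 against 124 to 176) were the others of 30 that did not overlap, and the part of these was not tested.

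In the other 13 cell types none of the 10 genes was called. Alveolar type 2 cells and neutrophils each had 6 genes lower without overlap, where 13.1% and 14.6% of their genes were. CD8 T cells had 5 such genes where 7.44% were, and ciliated cells 4 where 7.95% were. In ciliated cells all 10 genes had log2 fold changes below 0 (median −0.34). The digestion list summed to 5001 to 6501 against 6847 to 8626 in ciliated cells and overlapped in CD8 T cells, and its part was not tested. In neutrophils Rel had 281, 308 and 290 CPM against 377, 392 and 415 in controls (log2 fold change −0.34). The digestion list summed to 14550 to 15830 against 12520 to 14290 there, and its part was not tested. In alveolar type 2 cells Rel had 35.6, 29.0 and 25.5 against 38.9, 44.9 and 49.7 (−0.53). The lowest log2 fold change of the 199, −1.78 for Nfkbiz in alveolar type 1 cells (SE 0.69, edgeR adjusted p 0.391), rested on 146 UMIs in all. Classical monocytes had Nfkb1, Nfkb2, Rel and Relb lower and Nfkbiz higher without overlap, where 12.1% of their genes lay lower and 5.14% higher in this way. Nfkbiz was at 193, 218 and 203 against 151, 146 and 178 CPM (log2 fold change 0.41, SE 0.08, adjusted p 0.410). The digestion list summed to 8812 to 9733 against 7357 to 8489 in these cells, and its part was not tested. B cells and pericytes had none of the 10 genes without overlap, where 12.3% and 7.47% of their genes lay lower in this way.

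Over the 20 cell types, list genes outside the 10 gave 25 calls, to be read beside 0.311% of all combinations called lower and 0.251% higher. Other NF-kB and IkB genes gave 1 lower among 71 combinations, receptors 1 lower among 159, adaptors and kinases 3 lower among 447, and ubiquitin and RNA-decay regulators 3 lower among 226. Target genes outside the feedback loop gave 2 higher and 3 lower among 286, and the digestion list 12 lower among 272. Median log2 fold changes were −0.08, 0.03, −0.03, −0.03, 0.00 and −0.12 in that order, beside −0.19 for the 10 genes. Calls not yet given included Otulin in aerocytes (−0.40, edgeR adjusted p 0.0459), Zfp36 in lymphatic cells (−0.77, adjusted p 0.0435) and the chemokine gene Cxcl1 in peribronchial fibroblasts (−1.40, adjusted p 0.0110). The others were Junb and Btg2 of the digestion list in venous cells (−0.60 and −0.59, edgeR adjusted p 0.0284 and 0.0296), named after their values were seen.

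Whether the group difference itself differed between compartments was tested by interaction between endothelial, epithelial, mesenchymal, myeloid and lymphoid sums, with the library as a block. None of 100 tests of the 10 genes over 10 pairs of compartments passed an edgeR adjusted p of 0.05 (0.014% of all gene tests did), and 23 had an unadjusted p under that value (10.9% of all gene tests did). The smallest adjusted p, 0.0808, was that of Nfkbiz between endothelial and lymphoid cells. Its difference there was 0.77 (lymphoid minus endothelial, SE 0.11). Tests between single cell types were added after the data were seen, over 8 pairs and 80 tests of the 10 genes. Venous cells, chosen for their calls, were set against each of the 4 other endothelial types, and CD4 T cells, chosen likewise, against CD8 T, gamma-delta T, natural killer and B cells. Of these 3 were called, beside 0.339% of all gene tests over the 8 pairs, and 33 had an unadjusted p under 0.05, beside 10.4%. Tnfaip3 differed between venous cells and aerocytes, where 0.258% of genes did. Nfkb1 differed between CD4 T cells and CD8 T cells, where 0.813% of genes did, and between CD4 T cells and B cells, where 0.646% did. None of the 10 genes was called between venous and general capillary, arterial or lymphatic cells, or between CD4 T and gamma-delta T or natural killer cells, so neither difference is shown to be particular to venous or CD4 T cells. In CD8 T cells Nfkb1 had 339, 360 and 337 CPM against 448, 399 and 431 in controls, without overlap (log2 fold change −0.30). In B cells it had 485, 547 and 436 against 551, 482 and 513, with overlap.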

How the data were processed

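Single-cell 3′ libraries of 6 lungs were deposited by the authors as matrices of UMI counts per gene and barcode, with whole numbers that no normalization had changed. Per the submitters' processing notes, Cell Ranger 8.0.1 and mm10 were used; the annotation release was not given in the sources used here. Barcodes were kept with at least 300 genes, 500 UMIs and at most 15% mitochondrial UMIs. Marker gates took each cell's mean scaled log value over a type's markers: a score of at least 0.35, at least 3 markers, and a next gate at no more than 0.8 of the best. Cells that met gates of 2 compartments (1.61% to 2.22% of retained cells per library) were left out as possible doublets and no doublet caller was run. Of gated cells, 6.36% to 8.21% per library lay near the thresholds, which were set after the files were seen, without use of the 10 genes. Gates differed in this. Such cells were 178 of 726 in the arterial gate, 68 of 282 in type 2 conventional dendritic cells and 6 of 953 in alveolar type 2 cells.

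Counts were summed per library and cell type and tested with edgeR 4.0.16 in R 4.3.3 (TMM scaling, filterByExpr, quasi-likelihood F test, Benjamini-Hochberg adjustment over all genes of a cell type, threshold 0.05) where every library had at least 50 cells. SE is the log2 fold change divided by the square root of F. DESeq2 1.42.0 was an alternative, as were other scalings, filters and gates, and leaving out each library. Exact permutation tests used scipy 1.17.1, and scripts were tested on simulated data. Each library is 1 mouse, so the tests between groups set a difference against the spread between mice. Interaction tests, with the library as a block, used the spread between mice of a difference taken within each library. Replicate libraries were also compared over genes in sums over all retained cells. Chi-square per degree of freedom was 92.8 to 372, so the spread exceeded counting error there. That value includes differences in the mix of cells and was not computed within cell types. Gene positions are from GENCODE M21 on GRCm38, which matched 30934 of 31054 rows by identifier.

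The 10 genes, the lists and the comparisons were chosen with earlier results of these data known. Named were the 10 genes, up to 3 called list genes per cell type with the smallest adjusted p, the genes nearest in pattern, and Cdkn2a and tdTomato; other names are marked as chosen after their values were seen.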

Additional observations from a re-analysis of the deposited data

Results flagged for a closer look

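The 3 differences below were called between pairs of single cell types, in tests added after the data were seen. Venous and CD4 T cells were chosen for their calls in these same counts. The adjusted p covers the genes of 1 pair and does not allow for that choice or for the 8 pairs. Each compares the log2 fold change between groups in one cell type with that in another of the same libraries, with the library as a block. For Tnfaip3 the venous endothelial value was lower than the aerocyte value by a difference of −1.15 (SE 0.14, edgeR adjusted p 0.0204): it was lower in every p16-DTR-labelled library in venous cells, while in aerocytes the groups overlapped. For Nfkb1 the CD4 T value was below the CD8 T value by a difference of −0.62 (SE 0.10, adjusted p 0.0339) and below the B cell value by a difference of −0.85 (SE 0.10, adjusted p 0.0264). Both Nfkb1 differences use the same CD4 T cells, whose share with a UMI of the interleukin 17 programme differed between groups, and its part in them was not tested.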

How the results depend on the processing

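Against 10 calls in 20 cell types, where 0.562% of all combinations were called in either direction, 32 were made with no filter on low counts (1 of them higher; 1.79% of all), 30 by DESeq2 (2 higher; 1.45%), 5 with a replicate block (0.547%), and 1 to 10 with 1 library left out (0.139% to 0.42%). The other settings gave 8 to 13 (0.462% to 0.78%). With the block, the calls were Nfkb1 in CD4 T cells, Nfkb1, Rel and Relb in natural killer cells and Nfkbiz in alveolar type 1 cells, so no endothelial call was made. Between 144 and 161 of 198 to 200 combinations had a log2 fold change below 0 in every setting, with medians from −0.20 to −0.16. List genes outside the 10, with 25 calls, had 134 with no filter, 105 by DESeq2, 10 with the replicate block and 6 to 28 with 1 library left out. In venous cells the 5 calls became 0 with the replicate block and 0 to 4 with 1 library left out, and 4 or 5 in the other settings. Over all cells DESeq2 called 1 of the 10 genes (Nfkbia, 0.27, adjusted p 0.0217). Between compartments, 1 difference was called with no filter and 3 when single cell types were compared. With library size as scaling, 61.7% of all calls over the 20 cell types were lower, where the main scaling gave 55.4%. The causes of these shifts were not tested. Values over all cells that turned in sign were Bcl3 (−0.063) and Tnfaip3 (−0.042) with cell types at the same weights in every library, and Rel with library size as scaling (−0.035). Rel with those weights (−0.23) is a ratio of CPM, without TMM, whose unweighted counterpart is also below 0 (−0.035), so its sign turned with the scaling. With 1 library left out, Rel ran from −0.031 to 0.085, turning without p16-DTR replicate 2 or 3 or control replicate 1 or 2, and Tnip1 from −0.11 to 0.0078, turning without control replicate 3. Replicate numbers are shared by the groups in the labels. Deviations of same-numbered libraries over all cells correlated at 0.123, −0.0211 and 0.131. The highest correlations with a control library of another number were 0.00575, 0.0447 and 0.0148, so replicates 1 and 3 stood closest to their own number. In venous cells the same-numbered values were −0.0294, −0.181 and 0.00696, beside 0.0171, 0.196 and 0.168. The numbers were not taken to pair the mice, and these values do not settle whether they do.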
